A study of Mus musculus with 6 samples.

Results

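The genes of catecholamine synthesis, storage, reuptake and breakdown were examined in neurons and glial droplets of mouse autonomic ganglia. They were taken by symbol from the gene column of the count matrices, which gave 9 of 32285 genes: *Th*, *Ddc*, *Dbh*, *Pnmt*, *Slc18a2*, *Slc6a2*, *Gch1*, *Qdpr* and *Maoa*. All 9 had counts in each of the 6 libraries' tables. Choosing them used no measured value, although earlier results of these data were known when the list was drawn up. A narrower set of 5, *Th*, *Ddc*, *Dbh*, *Slc18a2* and *Slc6a2*, is called the core genes below.

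Noradrenaline is made from tyrosine. Tyrosine hydroxylase (*Th*) adds a hydroxyl group in the rate-limiting step, aromatic L-amino acid decarboxylase (*Ddc*) turns the product into dopamine, and dopamine beta-hydroxylase (*Dbh*) turns dopamine into noradrenaline inside the vesicle, which the vesicular monoamine transporter (*Slc18a2*) fills. Phenylethanolamine N-methyltransferase (*Pnmt*) converts noradrenaline to adrenaline. Tyrosine hydroxylase needs tetrahydrobiopterin, which GTP cyclohydrolase (*Gch1*) starts to make and dihydropteridine reductase (*Qdpr*) regenerates. Released transmitter is taken back by the noradrenaline transporter (*Slc6a2*), and monoamine oxidase A (*Maoa*) oxidises it. Most sympathetic neurons use noradrenaline, most parasympathetic neurons use acetylcholine, and the pelvic ganglion holds neurons of both transmitter types.

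Ganglia were taken at postnatal day 5 from mice in which Cre, expressed from a bacterial artificial chromosome, switches on tdTomato from the Rosa locus. Both sexes were used, every library had this genotype and age, and no treatment was given. The stellate ganglion and the lumbar chain are paravertebral sympathetic, the coeliac complex is prevertebral sympathetic, the sphenopalatine ganglion is parasympathetic, and the pelvic ganglion was sampled in 2 libraries, pelvic_1 and pelvic_2. Dissociated cells were encapsulated without a sort, so neurons, glia and other cells share each library, and the number of pups pooled per library is not given in the sources used here. Stellate, sphenopalatine and pelvic_1 belong to round 1 with reagent version 2, and coeliac, lumbar and pelvic_2 to round 2 with version 3.

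The values are counts of unique molecular identifiers (UMIs), 1 per captured RNA molecule. Libraries held between 2111 and 11122 droplets. After filtering, 7052 neurons and 8468 glial droplets were selected, with 237 to 2724 neurons per library and median depths of 26651 UMIs per neuron in the stellate to 108598 in pelvic_2. CPM are counts of a gene per 1000000 UMIs. In neurons, the sympathetic markers *Hand1*, *Gata3* and *Isl1* summed to 719 to 796 CPM in the stellate, coeliac and lumbar libraries. They summed to 455 and 407 CPM in pelvic_1 and pelvic_2 and to 0.197 CPM in the sphenopalatine. *Hmx2* and *Hmx3* summed to 34.7 CPM in the sphenopalatine against at most 0.218 CPM elsewhere. No sympathetic or parasympathetic library thus went against its label. These markers cannot tell the stellate, coeliac and lumbar libraries apart, and none of them is a pelvic marker. Between libraries of 1 round 9 to 94 barcodes coincided, and 80 neurons carried such a barcode. Without them the comparisons that were rerun, named in the closing section, called the same number of members. Levels below are CPM of UMIs summed over the cells of a group, and ± gives the SD of the 2 pelvic libraries. Other ganglia had 1 library each, cells are not replicates, and so no test between ganglia was possible. Folds are descriptions, and intervals, at 95%, cover counting error only.

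Pelvic neurons were clustered on variable genes from which the 9 genes had been removed. Of 1258 pelvic neurons, 568 were P1-like, 410 P2-like, 165 P3-like and 91 P4-like by at least 3 of the 5 markers of each published cluster, none of them a gene of this set. A shallow cluster without a marker among its 10 most raised genes was not named, nor one where another type had more markers there. This left 24 neurons unnamed, in 1 cluster with 5 P2 and 3 P3 markers raised. Its median depth was 6365 UMIs, against 37816 or more in the other clusters. Among its 10 most raised genes were *Col1a1*, *Dcn*, *Col1a2* and *Col3a1*. The fibroblast markers *Dcn*, *Lum*, *Pdgfra*, *Col1a1* and *Col3a1* summed to 6838 and 4594 CPM in it, against 49.5 to 237 CPM in the named types. P1-like neurons came from 2 clusters of 394 and 174 neurons. The P3-like group comprised 132 neurons of pelvic_1 and 33 of pelvic_2, and the P1-, P2- and P4-like neurons are called cholinergic below. *Slc18a3*, which loads acetylcholine into vesicles, was at 351 and 468 CPM in the latter and at 7.46 and 2.12 CPM in P3-like neurons.

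The members lie on 8 chromosomes (GRCm38 as annotated in GENCODE M21, joined by identifier for 9 of 9). The synthesis genes are *Th* (ENSMUSG00000000214, chr7:142892752-142931128, minus strand), *Ddc* (ENSMUSG00000020182, chr11:11814101-11898144, minus), *Dbh* (ENSMUSG00000000889, chr2:27165233-27183200, plus) and *Pnmt* (ENSMUSG00000038216, chr11:98386450-98388181, plus). The 2 transporters are *Slc18a2* (ENSMUSG00000025094, chr19:59260896-59296012, plus) and *Slc6a2* (ENSMUSG00000055368, chr8:92960079-93001667, plus). The pterin genes are *Gch1* (ENSMUSG00000037580, chr14:47153895-47189413, minus) and *Qdpr* (ENSMUSG00000015806, chr5:45434021-45450236, minus), and *Maoa* is ENSMUSG00000025037 (chrX:16619698-16687818, plus). *Ddc*, *Slc18a2* and *Qdpr* each overlap an annotated gene on the opposite strand (1700042O10Rik, Gm29261 and Gm42413), so reads assigned to these 3 could in part depend on strand-aware counting, which the sources used here do not describe. *Gch1* overlaps Gm18811 and Gm49134, which are not among the counted genes.

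Promoter sequence was read from RefSeq (GRCm38.p6) for the members listed there, 8 promoters of 7 genes, each spanning 250 bases before to 50 after the start. *Pnmt* and *Slc6a2* had no entry. The start meant here is that of the promoter entry. For *Th* and *Dbh* it lies inside the annotated gene span given above, and the span of *Th* begins at chr7:142931128 on its strand. The windows below, 80 bases before to 20 after the start and 5′ to 3′ on the gene's strand, are shown because *Th* and *Slc18a2* both hold the palindrome TGACGTCA, known as the full cAMP response element, close to the start, in capitals. The *Dbh* window, shown for comparison, holds none of the letters searched.
*Th*, chr7:142899976-142900075, minus strand: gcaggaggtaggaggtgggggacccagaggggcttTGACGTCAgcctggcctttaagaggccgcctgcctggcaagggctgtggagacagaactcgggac
*Slc18a2*, chr19:59260798-59260897, plus strand: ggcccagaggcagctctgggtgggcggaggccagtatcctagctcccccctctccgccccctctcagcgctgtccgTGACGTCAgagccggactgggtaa
*Dbh*, chr2:27165427-27165526, plus strand: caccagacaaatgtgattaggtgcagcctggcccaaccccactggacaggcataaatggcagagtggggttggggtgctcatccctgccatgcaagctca
TGACGTCA spans positions -45 to -38 in *Th* and -4 to 4 in *Slc18a2*, counted from the start. It is held by 588 of 32851 mouse promoters of the same length (1.79%) and by 2 of the 8 member promoters.

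Letters bound by the sympathetic factor *Gata3* (AGATAA or TGATAA) were also searched on both strands. AGATAA was found in *Slc18a2* and TGATAA in *Maoa*, in both on the other strand, at positions -230 to -225 and -238 to -233, and they are shown 5′ to 3′ on the gene's strand with the motif in capitals.
*Slc18a2*, chr19:59260636-59260665: ccttggccttgaTTATCTtcaggacctttg
*Maoa*, chrX:16619448-16619477: gcctcttcttggTTATCAccatcaacactt
The shares over all promoters were 11.2% for AGATAA (3672 promoters) and 9.05% for TGATAA (2974). Of the 8 member promoters 1 held each. A match describes the letters and is not a shown site of binding.

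Stellate neurons expressed every member at a higher level than sphenopalatine neurons, the only parasympathetic ganglion and a library of the same round. *Th* was at 994 CPM in the stellate, 658 in coeliac and 452 in lumbar neurons, against 1.85 CPM (95% Poisson interval 1.56 to 2.19) in the sphenopalatine. In the stellate, 89.2% of neurons had a *Th* UMI after each neuron was thinned to 4000 UMIs, and in the sphenopalatine 0.845% (16 of 1893). The fold between these libraries was 536 for *Th*, and the 3 sympathetic libraries did not overlap the sphenopalatine.

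Members that act after *Th* were lower in the sphenopalatine but measurable there. *Ddc* reached 465, 657 and 643 CPM in stellate, coeliac and lumbar neurons and 41.0 in the sphenopalatine, an 11.3-fold difference from the stellate. *Dbh* reached 1297, 1052 and 876 CPM in the sympathetic libraries and 38.4 in the sphenopalatine, 33.8-fold lower than in the stellate. For storage, *Slc18a2* was at 383, 525 and 303 CPM against 14.0. Relative to the stellate, these 3 genes were thus less reduced in the sphenopalatine than *Th*.

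Reuptake, cofactor and breakdown genes spanned a wide range of folds. *Slc6a2* was at 1614, 1039 and 1088 CPM in stellate, coeliac and lumbar neurons and 27.5 in the sphenopalatine (58.7-fold). *Gch1* was at 439.6, 295 and 297 CPM against 11.5 (38.4-fold), and *Maoa* at 568, 1077 and 622 CPM against 73.3 (7.75-fold). *Qdpr*, which regenerates the pterin and is used outside catecholamine cells as well, differed least, at 249.9, 208 and 182 CPM against 109 (2.30-fold).

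By a 2-fold difference among genes of at least 10 CPM in either group, 9 of 9 members were higher in stellate than in sphenopalatine neurons, where 4.06% of 8630 genes were, and 0 were lower (6.36% of genes). The median log2 ratio over the members was 5.08, and over all these genes -0.06. For *Pnmt* the sphenopalatine value rests on 2 UMIs, and the log2 ratio of 10.22 had a counting interval of 8.36 to 13.26.

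**Figure D1:**
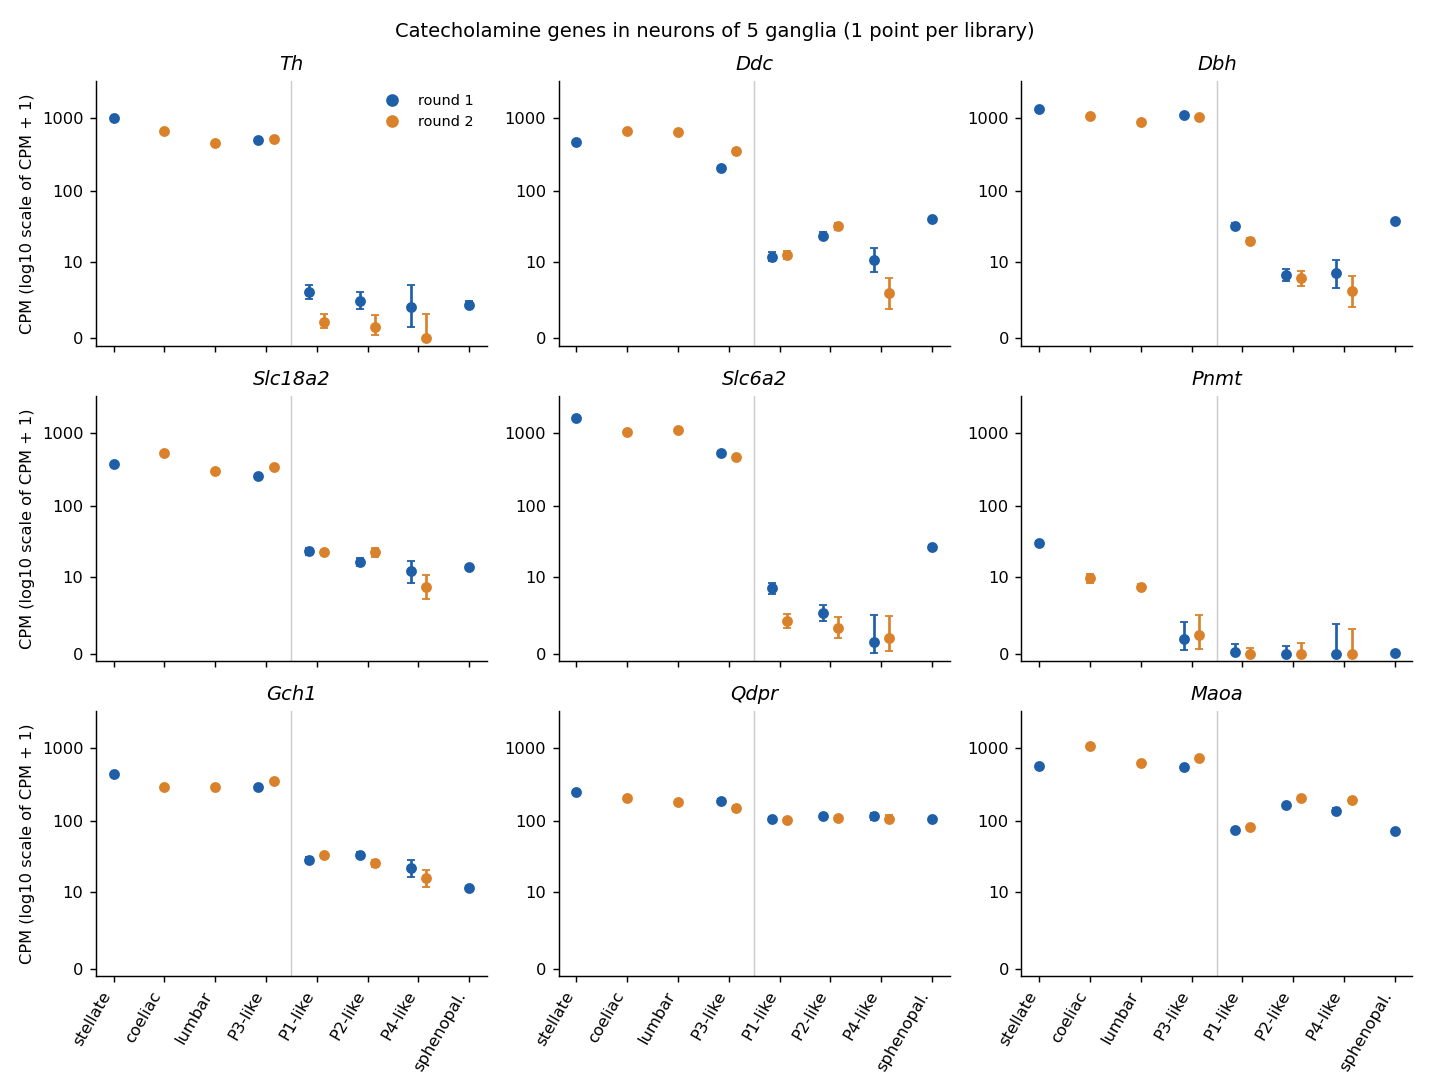
Level of each member, 1 panel a gene, as log10(CPM + 1) in neurons of each ganglion and in pelvic neuron types of both libraries. Points are libraries, their colour gives the sequencing round, and bars are 95% Poisson intervals. *Th* sits at 452 to 994 CPM in the 3 sympathetic ganglia and at 498 and 515 in P3-like neurons, and at 1.85 CPM in the sphenopalatine.

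*Pnmt* was the member most unequal among sympathetic ganglia. It was at 31.3 CPM (30.1 to 32.6) in stellate neurons, 9.62 (8.24 to 11.2) in coeliac and 7.12 (6.52 to 7.76) in lumbar neurons, and it had 3 UMIs in the P3-like neurons of each pelvic library. The stellate was thus above the other 2, although it belongs to another round, so ganglion and round cannot be told apart. At 4000 UMIs, 330 stellate neurons had a *Pnmt* UMI and 2373 did not. The mean UMIs of the 8 other members in the former were between 0.778 (*Slc18a2*) and 1.09 (*Ddc*) times those in the latter, and in the lumbar chain, with 26 *Pnmt*-positive neurons, between 0.809 (*Maoa*) and 1.20 (*Slc6a2*). In the coeliac, where 9 neurons had a *Pnmt* UMI, they ranged from 0.559 (*Slc6a2*) to 1.45 (*Maoa*). In the stellate the cholinergic genes *Slc18a3* and *Slc5a7* were at 0.144 and 0.131 times. The means behind these ratios were 0.00606 UMIs per neuron for both, against 0.0421 and 0.0464, so they rest on very few UMIs.

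The coeliac and lumbar libraries share a round and were compared with each other. None of 8 members passed 2-fold in either direction, where 0.884% of 8596 genes were higher and 1.13% lower in the lumbar. The largest log2 ratios of lumbar over coeliac were -0.79 for *Slc18a2*, -0.79 for *Maoa* and -0.54 for *Th*. Single neurons of a library also varied. Their ranges include counting error and unequal depth, so they are not comparable with these ratios of summed UMIs. From the 10th to the 90th percentile, *Th* ranged from 2.81 to 16.4 UMIs per 10000 with a median of 6.71 in stellate neurons, and from 0.884 to 6.84 with a median of 3.81 in lumbar neurons. *Slc6a2* ranged from 2.89 to 25.8 in the stellate, with a median of 14.1.

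Among pelvic neurons the pathway was carried by the P3-like group. *Th* was at 498 CPM in pelvic_1 and 515 in pelvic_2 (507 ± 12.1, n = 2 libraries) in P3-like neurons, and at 2.71 and 0.548 CPM (1.63 ± 1.53) in cholinergic ones. *Dbh* was at 1085 and 1032 CPM (1058 ± 37.7) against 19.3 and 14.3 (16.8 ± 3.51). *Slc6a2* was at 539 and 472 CPM (506 ± 47.4) against 4.43 and 1.52. In both libraries the P3-like neurons were far above the rest for these 3 genes.

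*Ddc* was at 207 and 353 CPM (280.2 ± 103) in P3-like and 17.2 and 17.5 (17.4 ± 0.193) in cholinergic neurons. *Slc18a2* was at 257 and 340 CPM (299 ± 58.5) against 19.6 and 21.3 (20.5 ± 1.15), and *Gch1* at 296 and 350.1 CPM (323 ± 38.2) against 30.8 and 29.8 (30.3 ± 0.702). *Maoa* was at 549 and 733 CPM (641 ± 130.1) against 121 and 131 (126 ± 7.25). Each of these 4 differed between the groups by more than the spread of the libraries. *Qdpr* differed less, at 189.8 and 151 CPM (170.5 ± 27.3) against 114 and 107 (110.5 ± 5.00).

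By 2-fold in both libraries, 7 of the 8 members at or above 10 CPM were higher in P3-like than in the other named pelvic neurons, where 2.81% of 8336 genes were, and *Qdpr* was not. None was lower (4.09% of genes). Clusters were drawn from the same cells, so this is a description of them. The log2 ratios in pelvic_1 and pelvic_2 were 7.52 and 9.88 for *Th*, 6.93 and 8.28 for *Slc6a2*, 5.81 and 6.17 for *Dbh*, then 3.71 and 4.00 for *Slc18a2*, 3.59 and 4.34 for *Ddc* and 3.26 and 3.55 for *Gch1*. Those of *Th*, *Slc6a2* and *Dbh* were the highest 3 in both libraries. Those of *Maoa*, 2.18 and 2.48, and *Qdpr*, 0.73 and 0.50, were the lowest.

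**Figure D2:**
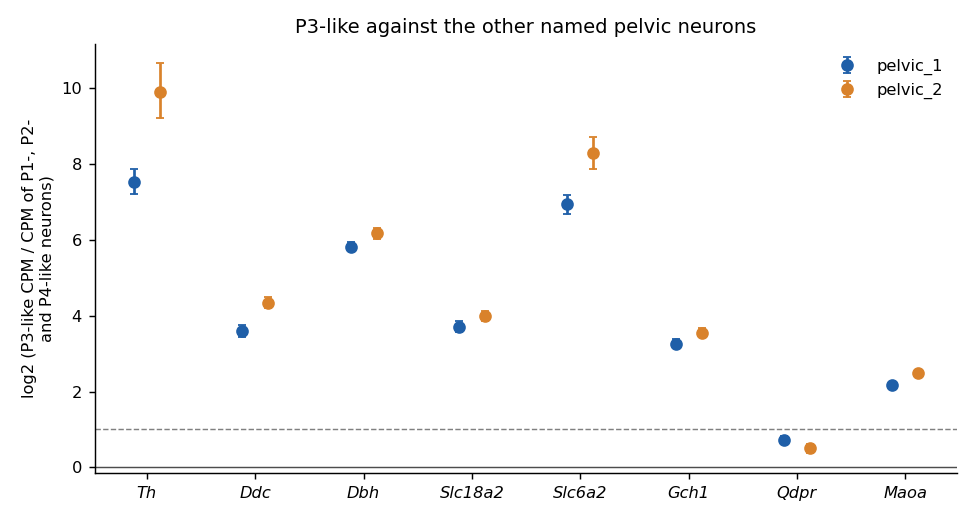
Log2 ratio of CPM in P3-like over P1-, P2- and P4-like neurons for 8 members, 1 point per pelvic library, with 95% counting intervals and a dashed line at 2-fold. *Th*, *Slc6a2* and *Dbh* stand at 5.81 or more in both libraries and *Qdpr* below the line in both.

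P3-like neurons were compared with sympathetic neurons of the same round. Against the stellate, 3 of 9 members were lower by 2-fold in P3-like neurons of pelvic_1, where 3.31% of 8468 genes were lower: *Slc6a2* with a log2 ratio of -1.58, *Ddc* with -1.17 and *Pnmt* with -5.77 (3 UMIs, counting interval -8.05 to -4.22). None was higher (3.93% of genes were). *Th*, at 498 against 994 CPM, fell just short, and *Dbh* (-0.26), *Maoa* (-0.05), *Slc18a2* (-0.58), *Gch1* (-0.57) and *Qdpr* (-0.40) did not pass. *Th* was also lower by 2-fold, for 4 members in all, when no neuron was left out for its glial markers, and also when the 9 genes were allowed into the clustering.

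In round 2, only *Slc6a2* of 8 members was lower by 2-fold in P3-like neurons of pelvic_2, by log2 ratios of -1.20 against the lumbar (3.72% of 8834 genes lower) and -1.14 against the coeliac (3.39% of 8850). None was higher in either comparison, where 4.17% and 3.08% of genes were. *Ddc* was at -0.86 and -0.89. The noradrenaline transporter was thus below the level of all 3 sympathetic libraries in both pelvic libraries, and *Dbh*, with log2 ratios of 0.24 against the lumbar and -0.03 against the coeliac, was close to theirs. The ratio of *Th* to *Slc6a2* UMIs within a group was 0.923 and 1.09 in P3-like neurons, and 0.616, 0.633 and 0.416 in stellate, coeliac and lumbar neurons.

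The cholinergic pelvic types differed from each other in single members. *Dbh* was higher by 2-fold in P1-like neurons than in the other cholinergic types in both libraries, with log2 ratios of 2.37 and 2.02 (1.84% of 8194 genes were higher), and no other of the 6 members tested was. It was at 32.9 and 20.3 CPM (26.6 ± 8.93) in P1-like, 6.29 and 5.55 (5.92 ± 0.526) in P2-like and 6.67 and 3.39 (5.03 ± 2.31) in P4-like neurons. Most P1-like neurons held little or no *Dbh*. Neurons with 5 or more *Dbh* UMIs, a limit chosen after values were seen, were 23 of 373 in pelvic_1 and held 73.8% of the P1-like *Dbh* UMIs, and 14 of 195 in pelvic_2 with 80.8%.

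The *Dbh* of P1-like neurons was also unequal between the 2 clusters named P1-like. In the larger it was at 49.9 CPM in pelvic_1 and 33.0 in pelvic_2, and in the smaller at 5.77 and 1.95, below the P2- and P4-like values of the same library. *Slc18a2* ran the other way, at 17.4 and 17.5 CPM in the larger cluster and 33.5 and 30.4 in the smaller. In the P1-like neurons rich in *Dbh*, the cholinergic genes were present, with *Slc18a3* at 269 and 382 CPM, against 326 and 374 in P1-like neurons with less *Dbh*. *Th* in them was at 11.6 CPM (12 UMIs) and 1.28 CPM (2 UMIs). The 12 *Th* UMIs of pelvic_1 all lay in 1 neuron, which also held 48 of the 55 *Slc6a2* UMIs of these neurons.

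P2-like neurons had more *Ddc* than the other cholinergic types. *Ddc* was at 24.1 and 32.5 CPM (28.3 ± 5.87) in P2-like and 12 and 12.7 (12.4 ± 0.472) in P1-like neurons, with log2 ratios over the other cholinergic types of 1.02 and 1.51 (1.74% of 8171 genes were higher). In pelvic_1 this call rests on 1 neuron with 51 of 330 UMIs, without which the ratio was 0.79. Without the corresponding neuron of pelvic_2 it was 1.31. *Dbh* was lower in P2-like neurons than in P1- and P4-like neurons pooled (-2.22 and -1.69, 2.41% of genes lower), although in pelvic_2 it was above the P4-like level, 5.55 against 3.39 CPM. The P2- and P4-like *Dbh* of pelvic_1, 6.29 and 6.67 CPM, was below the level in its glial droplets, 22.2 CPM. Those droplets were shallower, with a median of 4146.5 UMIs against 39915 and 38880. By mean *Dbh* UMIs per cell the order was the reverse, 0.265 and 0.271 against 0.107.

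*Maoa*, the breakdown enzyme, was lowest in P1-like neurons, at 77.1 and 83.4 CPM (80.2 ± 4.48) against 168 and 211 (189.5 ± 31.0) in P2-like neurons and 138 and 193 in P4-like ones. It was the 1 member lower in P1-like neurons by 2-fold in both libraries (-1.08 and -1.31, 2.33% of genes lower). *Maoa* was at 90.4 and 104 CPM in the larger P1-like cluster and 55.7 and 53.4 in the smaller, against 163 and 207 in P2- and P4-like neurons pooled. The call is for both clusters together, and much of the difference lies in the smaller. P4-like neurons, 59 and 32 in number, had less *Dbh* than P1- and P2-like neurons pooled (-1.61 and -2.19, 3.07% of 8327 genes lower) and no member was higher (4.13% were). This ratio rests on the *Dbh* of P1-like neurons, since in pelvic_1 the P4-like level of 6.67 CPM was not below the P2-like level of 6.29. The summed glial markers of P4-like neurons were 404 and 348 CPM. They were 129 and 71.5 in P1-like and 158 and 86.3 in P2-like neurons, and the part of these in the result was not tested.

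Cholinergic neurons of pelvic_1 and of the sphenopalatine, both of round 1, differed in 3 of the 7 members at or above 10 CPM. *Gch1* was higher in the pelvic neurons (30.8 against 11.5 CPM, log2 ratio 1.43, 4.21% of 8644 genes higher). *Slc6a2* (4.43 against 27.5 CPM, -2.63) and *Ddc* (17.2 against 41.0 CPM, -1.25) were lower (3.70% of genes lower), and *Dbh*, at 19.3 against 38.4 CPM, fell just short with -0.99. In the sphenopalatine too, *Dbh* was concentrated. Its 194 neurons with 5 or more *Dbh* UMIs, 10.2% of all, held 69.1% of the *Dbh* UMIs, and their *Ddc* was at 24.4 CPM against 42.9 in the other sphenopalatine neurons. *Dbh* and *Ddc* were thus not enriched in the same sphenopalatine neurons. *Th* was higher in the *Dbh*-rich ones, at 4.10 CPM (32 UMIs) against 1.60. *Slc6a2* was lower in them, at 17.7 against 28.6 CPM, as was *Slc18a2*, at 10.8 against 14.3.

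At an equal depth, several core genes were detected together in most sympathetic and P3-like neurons and seldom in the other neurons. After thinning to 4000 UMIs, 3 or more of the 5 were found in 96.0% of stellate (95% Wilson interval 95.2 to 96.7), 97.4% of coeliac and 91.8% of lumbar neurons. In P3-like neurons this share was 84.8% in pelvic_1 and 90.9% in pelvic_2. In the sphenopalatine it was 0.106% (2 of 1893), in cholinergic neurons of pelvic_1 0.132% (1 of 756), and in those of pelvic_2 0 of 302, which allows up to 0.993% (3 counts). Sets of 3 or more were thus found in most neurons of each sympathetic library and of the P3-like group, and in 3 neurons of the sphenopalatine and cholinergic pelvic groups together, at this depth. With all UMIs the share was 16.6% in the sphenopalatine and 13.7% in cholinergic pelvic neurons, against 98.6% or more in the sympathetic libraries and 100% in P3-like neurons.

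Detection of a single core gene in a neuron was common outside the sympathetic group. At 4000 UMIs, at least 1 core gene was seen in 33.9% of sphenopalatine neurons and in 19.7% and 16.2% of cholinergic pelvic neurons. In the sphenopalatine the commonest sets were *Ddc* alone (214 neurons, 11.3%), *Dbh* alone (176, 9.30%), *Slc6a2* alone (120, 6.34%) and *Slc18a2* alone (64, 3.38%). In cholinergic pelvic neurons they were *Slc18a2* alone (6.48% and 7.28%), *Ddc* alone (5.82% and 3.64%) and *Dbh* alone (4.50% and 3.31%). *Th* was not among these commonest sets. A gene without a UMI at 4000 UMIs is not shown to be absent. With all UMIs, *Ddc* was detected in 51.4% of sphenopalatine neurons, *Dbh* in 38.4%, *Slc6a2* in 34.9% and *Slc18a2* in 29.7%.

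**Figure D3:**
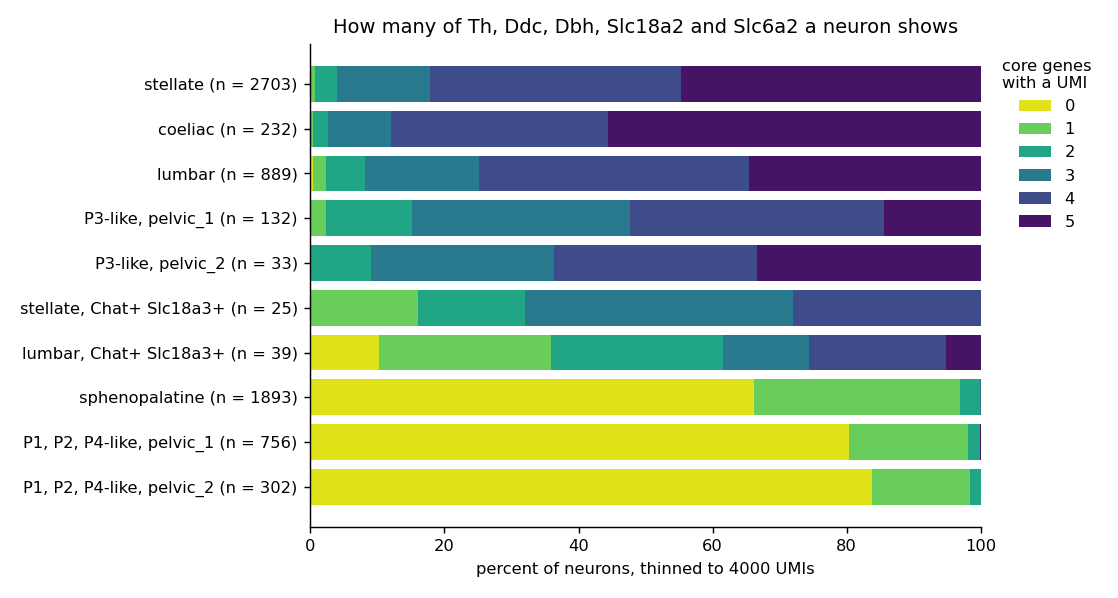
Percent of neurons with 0 to 5 of the core genes *Th*, *Ddc*, *Dbh*, *Slc18a2* and *Slc6a2* at 4000 UMIs per neuron, as stacked bars, 1 per group and library. Sympathetic and P3-like bars consist mainly of 3 to 5 genes, and 66.1% of sphenopalatine neurons have 0.

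Glial droplets were taken as a background level. How far free RNA, attached fragments, doublets or expression by glia make it up was not tested. At 2000 UMIs, a core gene was seen in 79.4% of glial droplets from the stellate, 30.3% from the coeliac and 21.0% from the lumbar library, against 2.68% in the sphenopalatine and 6.39% and 2.79% in the pelvic libraries. Glial CPM of the core genes were 14.0 to 26.2% of neuronal CPM in the stellate, 5.25 to 7.63% in the coeliac, 3.97 to 4.88% in the lumbar, 7.79 to 32.6% in the sphenopalatine, 10.0 to 20.7% in pelvic_1 and 2.74 to 31.3% in pelvic_2. Summed over the core genes this was 19.1% in the stellate, 6.21% in the coeliac, 4.23% in the lumbar, 17.0% in the sphenopalatine and 14.7% in the pelvic libraries. It was 15.3%, 2.91%, 2.34%, 3.64% and 4.95% for glia without *Stmn2* and *Stmn3* UMIs. The neuronal level here is that of all neurons of a library, and most pelvic neurons are cholinergic. The pelvic and sphenopalatine percentages are therefore not comparable with the sympathetic ones. Pelvic glial *Th* was at 10.4 and 16.6 CPM, against 73.9 and 53.2 in all pelvic neurons and 498 and 515 in P3-like neurons. Stellate glial droplets had 215 CPM of *Th*, 278 of *Dbh* and 226 of *Slc6a2*. The median stellate glial droplet had 3522 UMIs and the coeliac one 12151.

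In the sphenopalatine the core genes were above this background by UMIs per droplet. A sphenopalatine neuron held on average 23.3 times the *Th* UMIs of a glial droplet of its library (5 glial UMIs in all), 50.4 times the *Ddc*, 27.0 times the *Dbh*, 97.3 times the *Slc18a2* and 90.7 times the *Slc6a2* UMIs. *Qdpr*, found in most cells, had a ratio of 10.7 there. At an equal 4000 UMIs, a core gene was seen in 33.9% of sphenopalatine neurons and 5.55% of the glial droplets deep enough. For the cholinergic pelvic neurons the shares were 19.7% and 16.2% against 11.7% and 6.54%.

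Cholinergic pelvic neurons of pelvic_1 held 2.23 times the *Th* UMIs of a glial droplet, 7.44 times the *Dbh*, 16.0 times the *Ddc*, 26.2 times the *Slc18a2* and 32.7 times the *Gch1* UMIs, against 12 for *Qdpr*. *Th*, *Slc6a2* (4.64) and *Dbh* thus lay below the ratio of *Qdpr*, and *Ddc*, *Slc18a2*, *Gch1* and *Maoa* (20.3) above it. *Qdpr* was itself at 81.5 CPM in pelvic_1 glia, 65.3% of the neuronal level. Its ratio therefore cannot separate expression from background. In pelvic_2, 1 glial droplet of 79621 UMIs held 105 of 122 glial *Th* UMIs, 96 of 132 *Dbh* UMIs and 60 of 82 *Ddc* UMIs, but 3 of *Slc6a2*. With it the pelvic_2 ratios were 0.271 for *Th*, 6.56 for *Dbh* and 12.9 for *Ddc*, and without it 1.94, 24.0 and 48.0, against 16.9 for *Qdpr*. *Dbh* was thus below the ratio of *Qdpr* in pelvic_1 and, without this droplet, above it in pelvic_2. The low *Th* of cholinergic pelvic neurons, 2.71 and 0.548 CPM, was below the glial level of the same library, 10.4 and, without that droplet, 2.34 CPM, while by UMIs per droplet it was 2.23 and 1.94 times the glial value. In pelvic_1 their *Dbh* (19.3 CPM) and *Slc6a2* (4.43 CPM) were also below the glial 22.2 and 8.18 CPM. In pelvic_2 without that droplet both were above, *Dbh* at 14.3 against 4.96 and *Slc6a2* at 1.52 against 0.965 CPM. With it, *Dbh* was below. The *Dbh* of P2- and P4-like neurons, 5.55 and 3.39 CPM in pelvic_2, was near 4.96. By CPM, the *Dbh* difference between P2- and P4-like neurons thus cannot be told apart from background. P1-like *Dbh* was above the glial level, at 32.9 against 22.2 CPM in pelvic_1. In pelvic_2 it was at 20.3 against 4.96 CPM without that droplet. The larger P1-like cluster, at 49.9 and 33.0 CPM, was above these glial levels, and the smaller, at 5.77 and 1.95, was below them. How much of the P1-like level is background was not tested.

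Some sympathetic neurons carried cholinergic genes, and in these most of the members were lower, while *Dbh*, *Maoa* and *Qdpr* differed by less than 2-fold. UMIs of both *Chat*, which makes acetylcholine, and *Slc18a3* were present in 25 of 2724 stellate neurons (0.918%, 0.622 to 1.35), 39 of 930 lumbar neurons (4.19%, 3.08 to 5.68) and 1 of 237 coeliac neurons. These were compared with neurons of the same library without a UMI of *Chat*, *Slc18a3* or *Slc5a7*, 2241 and 596 in number. They were deeper, with medians of 42808 against 24681 UMIs in the stellate and 93972 against 59130 in the lumbar chain, and with likely doublets removed the same 6 members were lower in both ganglia.

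*Th* was at 283 CPM in the *Chat* and *Slc18a3* positive and 946 in the negative stellate neurons, and at 138 against 443 in the lumbar chain. *Ddc* was at 214 against 469 and 164 against 715 CPM. *Slc18a2* was at 63.0 against 377 and 65.7 against 279.7 CPM, and *Slc6a2* at 272 against 1641 and 316 against 1122. *Gch1*, the pterin gene, was at 159.6 against 442 and 125 against 305 CPM. Stellate glial droplets had 215 CPM of *Th*, 122 of *Ddc*, 70.3 of *Slc18a2*, 226 of *Slc6a2* and 85.7 of *Gch1*. By CPM the *Slc18a2* of the positive stellate neurons was thus below the glial level, and their *Th* and *Slc6a2* were not far above it. Stellate glial droplets were much shallower, with a median of 3522 UMIs against 42808 in the positive neurons. On average they held 0.273 *Slc18a2*, 0.833 *Th* and 0.879 *Slc6a2* UMIs per droplet. CPM of groups so unlike in depth do not show how much of the level in these neurons is background. Lumbar glial droplets had 13.9 to 45.4 CPM of these genes. In both ganglia *Th*, *Ddc*, *Pnmt*, *Slc18a2*, *Slc6a2* and *Gch1* were lower by 2-fold, 6 of 9 members, where 4.62% of 8682 genes in the stellate and 3.40% of 8883 in the lumbar chain were. None was higher, where 8.81% and 7.08% of genes were.

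*Dbh* was at 952 against 1249.6 CPM (log2 ratio -0.39) in the stellate and 552 against 856 (-0.63) in the lumbar chain. *Maoa* was at 413 against 548 (-0.41) and 471 against 552 CPM (-0.23), and *Qdpr* at -0.85 and -0.78. In single neurons, *Dbh* was found in each of the 25 and 39 positive neurons, with the lowest at 2.07, the median at 9.56 and the highest at 15.5 UMIs per 10000 in the stellate. In the lumbar chain the lowest was 1.21, the median 4.75 and the highest 10.5. *Th* in the lumbar positive neurons went from 0 over a median of 0.0973 to 7.38 UMIs per 10000, and 16 of the 39 had none, while the negative neurons had a median of 3.47.

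At 4000 UMIs, *Dbh* was seen in 92.0% of the positive stellate and 87.2% of the positive lumbar neurons, *Th* in 52.0% and 23.1% and *Slc18a2* in 32.0% and 23.1%. Sets of 3 or more core genes were in 68.0% (17 of 25) and 38.5% (15 of 39), against 96.3% and 94.4% of the negative neurons. In glial droplets deep enough for 4000 UMIs this share was 38.6% (320 of 829) in the stellate and 2.11% (18 of 854) in the lumbar library. In the lumbar positive neurons *Dbh* alone was the commonest set (10 of 39), followed by *Dbh* with *Slc6a2* (7 of 39), and in the stellate *Dbh* alone was seen in 4 of 25.

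**Figure D4:**
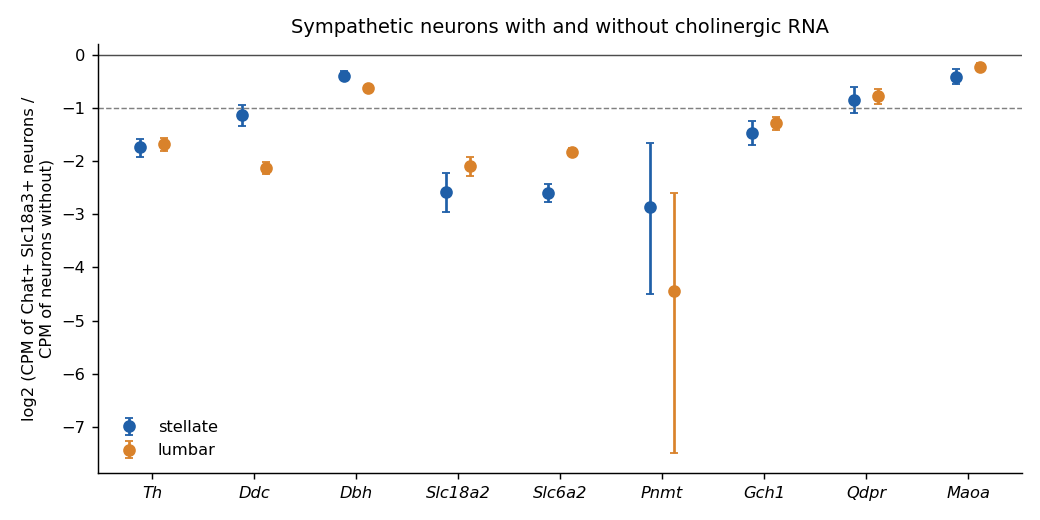
Log2 ratio of CPM in neurons with UMIs of both *Chat* and *Slc18a3* over neurons without cholinergic UMIs, for each member, in the stellate (25 against 2241 neurons) and the lumbar chain (39 against 596), with 95% counting intervals and a dashed line at 2-fold lower. *Dbh*, *Qdpr* and *Maoa* lie above the line in both ganglia and the other 6 below it.

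The wider pathway was followed in 3 lists. The shares of all genes past 2-fold, given above with each comparison, apply to these lists too. Of 4 genes of tetrahydrobiopterin supply (*Pts*, *Spr*, *Pcbd1* and *Gchfr*), 3 reached 10 CPM in each comparison. Of these, 0 passed 2-fold in any comparison named above, where 0.884% to 8.81% of all genes passed in 1 direction. With shares so low, 0 of 3 genes does not set them apart from other genes. *Gch1* passed in several comparisons. *Pcbd1*, which recycles the pterin, was at 418 CPM in stellate and 263 in sphenopalatine neurons.

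Of 4 breakdown genes (*Maob*, *Aldh2*, *Akr1a1* and *Akr1b3*), *Maob*, the second monoamine oxidase, was the 1 higher in stellate than in sphenopalatine neurons (77.8 against 8.50 CPM) and in P3-like than in other named pelvic neurons (73.5 against 26.5 and 93.5 against 25.0 CPM). It was also higher in cholinergic neurons of pelvic_1 than in the sphenopalatine (log2 ratio 1.64). Like *Maoa* it was lower in P1-like than in the other cholinergic types (-1.02 and -1.13), and unlike *Maoa* it was lower in *Chat* and *Slc18a3* positive neurons (-2.07 in the stellate, -1.58 in the lumbar chain). *Akr1b3*, an aldose reductase, was higher in those of the stellate (1.11). *Aldh2*, which acts on the aldehydes that monoamine oxidase makes, was higher in glial droplets (160.2 to 301 CPM) than in all neurons (41.6 to 78.7 CPM) of the 6 libraries, and *Akr1a1* passed 2-fold in none of the comparisons.

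Of 7 genes of transport and hydroxylation, 2 reached 10 CPM in the sympathetic comparisons, *Slc18a1*, a second vesicular monoamine transporter, and *Cyb561*, which passes electrons into vesicles for *Dbh*. *Slc18a1* was at 191 and 155 CPM in P3-like neurons, 57.6 in coeliac, 27.2 in stellate, 10.1 in lumbar and 0.552 in sphenopalatine neurons. It was thus higher in P3-like neurons than in the stellate (log2 ratio 2.81), the lumbar chain (3.94) and the coeliac (1.42). In cholinergic neurons of pelvic_1 it was higher than in the sphenopalatine (4.64), and it was lower in lumbar than in coeliac neurons (-2.52) and in *Chat* and *Slc18a3* positive stellate neurons (-1.15). Against the sympathetic libraries *Cyb561* was lower in P3-like neurons, at 187 and 166 CPM against 617, 496 and 417 in stellate, coeliac and lumbar neurons. *Slc6a3*, *Tph1*, *Tph2*, *Slc22a2* and *Slc22a3* stayed at or below 2.20 CPM in every ganglion and named pelvic type.

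Over 12 neuron groups, the 4 non-pelvic ganglia and 4 pelvic types in each of 2 libraries, the genes with the most similar pattern of log2(CPM + 1) were listed for the core genes and *Pnmt* among 10005 genes. For *Th* they were *Slc31a1* (Pearson r = 0.994), *Slc18a2* (0.980) and *C1ql1* (0.977), and for *Slc18a2* they included *Th* (0.980) and *Gch1* (0.979). *Dbh* and *Slc6a2* were nearest to each other (0.982). *Ddc* was nearest to *Rpp25* (0.961), *Zfpm2* (0.958) and *C1ql1* (0.958), and *Pnmt* to *Slc30a3* (0.975), *Omp* (0.970) and *Sctr* (0.967). The groups share libraries and depth, so these are descriptions with no p.

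Droplets low in both neuronal and glial markers, and so outside both selections, also held members. Those with at least 10 UMIs of the chromogranins *Chga* and *Chgb* together per 10000, a limit chosen after values were seen and using no member, were 148 of 1689 such droplets in pelvic_1, 35 of 694 in pelvic_2, 12 of 394 in the coeliac, 21 in the stellate, 3 in the lumbar chain and 0 in the sphenopalatine. *Th* was at 981 and 653 CPM and *Dbh* at 1378 and 1119 CPM in those of pelvic_1 and pelvic_2, at or above P3-like neurons. *Slc6a2*, at 44.4 and 46.9 CPM, was 12.1- and 10.1-fold lower than in P3-like neurons, and *Maoa*, at 79.2 and 112 CPM, 6.93- and 6.56-fold lower. *Th* was 1.97- and 1.27-fold and *Dbh* 1.27- and 1.09-fold the P3-like level.

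The other members in them varied. *Ddc* was at 345 and 730.1 CPM, 1.66- and 2.07-fold the P3-like level, *Gch1* at 399.7 and 341, *Qdpr* at 441 and 346 and *Slc18a1* at 266 and 267 CPM. *Slc18a2*, at 134 and 329.9 CPM, was below P3-like neurons in pelvic_1, and *Pnmt* was at 0.965 CPM and 0. The neuronal gene *Stmn2* was at 858 and 707 CPM against 3742 and 4627 in P3-like neurons. In the other droplets outside the selections *Th* was at 9.12 and 3.69 CPM. The chromogranin limit was also reached by 10 pelvic_1, 40 pelvic_2, 257 stellate, 300 lumbar, 55 coeliac and 36 sphenopalatine neurons. It therefore does not by itself separate these droplets from neurons.

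**Figure D5:**
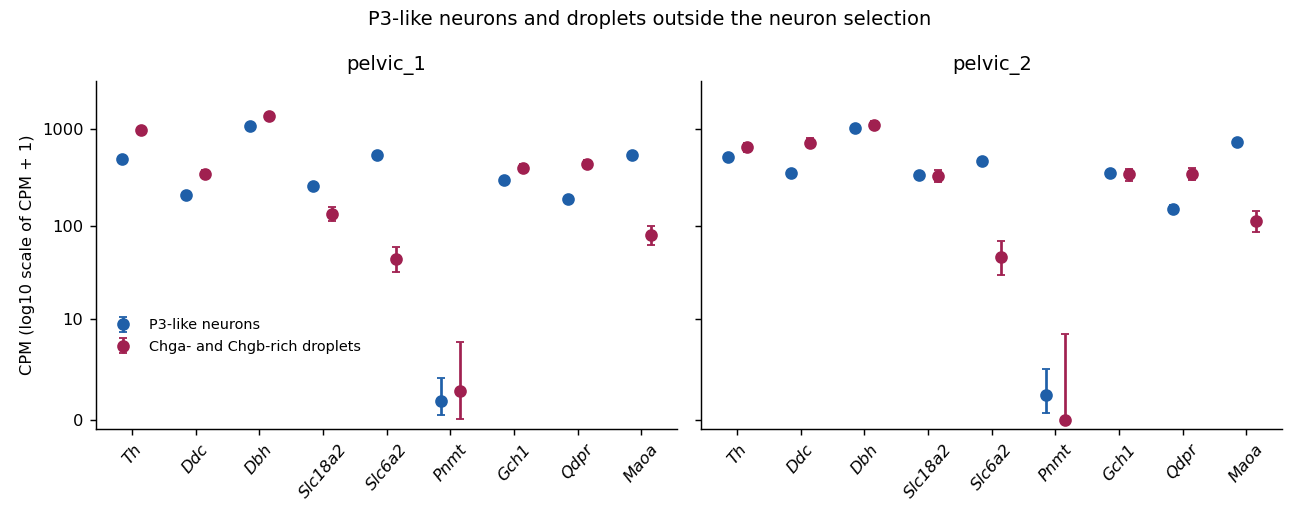
CPM in P3-like neurons and in *Chga*- and *Chgb*-rich droplets outside the selections, pelvic_1 and pelvic_2, with 95% Poisson intervals. *Th* and *Dbh* are at or above the P3-like level in these droplets, and *Slc6a2* and *Maoa* are below it in both libraries.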

How the data were processed

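Single cells of 6 mouse ganglion libraries were sequenced in 2 rounds. The values used are the counts that the authors deposited, raw UMIs per gene and droplet, not normalized. The submitters' processing notes name Cell Ranger 6.0.1 and mm10. No column was left out.

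The 9 genes, the lists and the markers were chosen with earlier results of these data known. Named genes are the 9 members, 3 lists of other pathway genes, the cholinergic genes *Chat*, *Slc18a3* and *Slc5a7*, and the 3 genes most like each core gene and *Pnmt*. Some genes of these lists are not reported here.

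A droplet was kept if more than 1500 but fewer than 11000 genes were seen in it and mitochondrial genes took less than 15% of its UMIs, which left 21442 of 30777. For the selection of neurons, counts were transformed by Seurat 5.3.0 (sctransform 0.4.2, R 4.3.3). Neurons had a mean of *Stmn2*, *Stmn3*, *Gap43* and *Tubb3* above 3 and a mean of 5 glial genes, among them *Ttyh1*, *Fabp7*, *Cryab* and *Mal*, below 1.15, the valley of its histogram, and glia the reverse. Droplets past both limits were in neither selection. The 5696 droplets past neither limit entered no comparison. Louvain clusters of pelvic neurons (resolution 0.3) rest on 50 components of 3000 variable genes without the 9 members, after a correction by mutual nearest neighbours (20 neighbours), in Python 3.11.15 with numpy 2.4.6, scipy 1.17.1, scikit-learn 1.9.0 and python-igraph 0.11.9. Thinning drew 4000 UMIs per neuron and 2000 per glial droplet and left out shallower ones, 1 to 41 neurons per library. CPM came from summed UMIs, with exact Poisson intervals. Shares have Wilson intervals, and a count of 0 stands at 3 counts in a ratio. Folds were computed on all genes of at least 10 CPM in either group, with a step tested on simulated data.

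Doublets were limited by the glial exclusion, and as an alternative neurons with over 50% simulated doublets among 30 neighbours were removed. Other alternatives were selection on log counts, no glial exclusion, clusters with the members or also without the pathway genes, resolution 0.6, no batch correction, 4-fold, no filter with 1 CPM added, means over cells, all UMIs, 2 UMIs, 10000 UMIs, glia without *Stmn2* and *Stmn3*, and each pelvic library left out. Leaving out shared barcodes or pelvic neurons under 10000 UMIs was chosen after seeing the data.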

Additional observations from a re-analysis of the deposited data

Results flagged for a closer look

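The *Chga*- and *Chgb*-rich droplets drew attention because they hold catecholamine genes although they lie outside every comparison, in droplets that were selected neither as neurons nor as glia. In pelvic_1, *Th* was at 981 CPM, *Dbh* at 1378, *Slc6a2* at 44.4 and *Maoa* at 79.2. In pelvic_2, *Th* was at 653 CPM, *Dbh* at 1119, *Slc6a2* at 46.9 and *Maoa* at 112. In the 12 such droplets of the coeliac library, *Th* was at 616 CPM, *Dbh* at 1271, *Slc6a2* at 93.0 and *Maoa* at 115, and *Slc6a2* and *Maoa* were 11.2- and 9.35-fold lower than in coeliac neurons. In the 3 of the lumbar chain, *Th* was 2.13-fold and *Dbh* 2.60-fold the level of lumbar neurons. The ratio of *Th* to *Slc6a2* UMIs was 22.1 in those of pelvic_1, 13.9 in pelvic_2, 6.62 in the coeliac, 13.2 in the lumbar chain and 1.94 in the 21 of the stellate, against 0.416 to 1.09 in sympathetic and P3-like neurons. The sphenopalatine had 0 such droplets among 1077 low in both neuronal and glial markers.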

How the results depend on the processing

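No result that was rerun reversed under an alternative, and no call rests on a test. Comparisons among the P1-, P2- and P4-like types and of cholinergic pelvic_1 with sphenopalatine neurons were not rerun. Those of pelvic_2 P3-like neurons with lumbar or coeliac neurons were not rerun either. Without shared barcodes 508 pelvic neurons were P1-like and 80 unnamed, against 568 and 24. The 9 members higher in the stellate than in the sphenopalatine, the 7 higher in P3-like neurons, also without either pelvic library (7 and 7), and the 0 past 2-fold between lumbar and coeliac stayed within 1.5 times of their number. At 4-fold, members lower in P3-like than in stellate neurons went from 3 to 1 (*Pnmt*), and at 2-fold 1 (*Slc6a2*) was lower in pelvic_2 against the lumbar. Those lower in *Chat* and *Slc18a3* positive neurons went from 6 to 3 in the stellate and to 3 in the lumbar chain at 4-fold. The share of neurons with 3 or more core genes depended on depth. With all UMIs it was 99.7% in the stellate, 99.6% in the coeliac, 98.6% in the lumbar, 16.6% in the sphenopalatine, 100% in P3-like and 13.7% in cholinergic pelvic neurons. At 10000 UMIs it was 99.6%, 100%, 96.5%, 1.23%, 99.2% and 0.266%, and with a minimum of 2 UMIs 77.3%, 75.0%, 69.1%, 0% and 50.8% in the first 5. In cholinergic pelvic neurons it was 0.237% with selection on log counts and 0.198% without neurons under 10000 UMIs. Leaving out 1 pelvic library gave 84.4 to 90.9% for P3-like, 0 to 0.132% for cholinergic pelvic neurons and 13.2 to 16.1% for glial levels. The glial level of the summed core genes was taken as a percent of the level in all neurons of a library. It was 19.1 in the stellate, 6.21 in the coeliac, 4.23 in the lumbar, 17.0 in the sphenopalatine and 14.7 in the pelvic libraries. It was 15.3, 2.91, 2.34, 3.64 and 4.95 for glia without *Stmn2* and *Stmn3* UMIs, and 17.8 in the stellate, 9.80 in the sphenopalatine and 7.09 in the pelvic libraries with selection on log counts. The causes were not tested, beyond the depth that thinning sets. No paired analysis was possible between ganglia because they share only 1 replicate number. P3-like and cholinergic neurons, and neurons and glia, come from the same libraries. Their values are given library by library and were not tested.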
